A study of Mus musculus with 85 samples.

Results

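Primary pericytes from adult mouse brain, kept in culture with vehicle, were compared with pericytes sorted by flow cytometry from the brains of mouse embryos. The 3 vehicle cultures and the 4 sorted Cre control libraries were taken by their sample names, and together they are 7 of the 64 RNA sequencing libraries and of the 85 samples in the series. The study deleted Mof, Kansl2 or Kansl3, genes of the NSL histone acetyltransferase complex, in neural cells with Nestin-Cre, and it also treated cultured pericytes with fatty acids. Vehicle cultures and sorted controls carry the same cell type name in the series, and the question here is how far their RNA differs.

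The vehicle cultures are labelled WT_vehicle. They received ethanol and BSA, the carrier of the fatty acids, and grew in a commercial pericyte medium with growth factors. The sorted cells are labelled Cre control, came from brains at E14.5, and were isolated by flow cytometry with a method named EMBRACE. The Cre of the study is Nestin-Cre, a driver known for neural progenitors, and the labels do not say which floxed alleles, if any, these controls carried. The labels give the culture's age only as adult. RNA of the cultures was made into TruSeq libraries, while RNA of the sorted pericytes was amplified with SMART-Seq v4 and tagged with Nextera XT, and the RNA extraction kits differed as well. Culture, age, genotype label, extraction, library kit and deposited table all change together between the groups, so their parts in any difference cannot be told apart. Which cells made up each group was not tested either, and the name pericyte is that of the labels. The labels do not say whether the 3 cultures come from separate animals or from 1 isolation, so the p-values rest on the spread among these libraries alone, which may be technical. The cultures held 42623429 to 51854152 reads and the sorted libraries 3879869 to 5705548.

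Pericytes are mural cells that sit in the basement membrane of capillaries and touch the endothelium. Endothelial PDGF-B draws them along the vessel through the receptor PDGFRB, contact with endothelium keeps NOTCH3 signalling on, and the ATP-sensitive potassium channel made of KCNJ8 and ABCC9 sets their membrane potential. In the brain they help to form the blood-brain barrier. Once dissociated and plated they lose flow, matrix and endothelial contact and divide on a stiff surface, and mural cells in culture are known to change their contractile and matrix genes.

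Both tables were joined by Ensembl gene, scaled together with TMM (a method that sets library sizes so that most genes do not differ), and expressed as CPM, the reads of a gene per unit of scaled library size. A gene was tested when the mean of the 2 group means was at least 5 CPM, with limma's trend test on log2(CPM + 1). It was called higher or lower in the vehicle cultures at an adjusted p under 0.05 with at least a 4-fold difference on that scale. Of 12415 genes tested, 2381 (19.2%) were higher and 1699 (13.7%) were lower in the vehicle cultures, and 10169 (81.9%) had groups that did not overlap. By the adjusted p alone, 9892 (79.7%) differed. Most genes thus told the groups apart, and the shares 19.2% and 13.7% are the background against which each list below is read. Lists and members were chosen with earlier results of these data known, so an excess over these shares is description and not independent support. A log2 difference is vehicle culture minus sorted Cre control, given with its standard error, and group means are given ± SD with n = 3 vehicle cultures and n = 4 sorted Cre libraries.

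**Figure D1:**
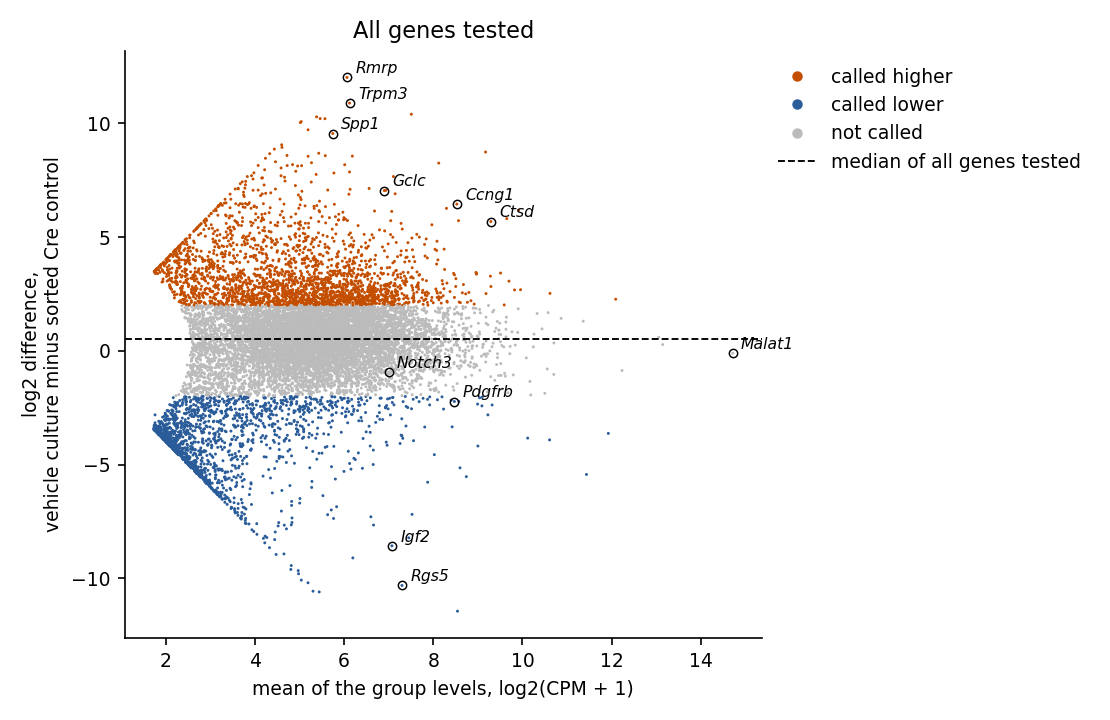
Each point is 1 of the 12415 genes tested, with the mean of the 2 group levels in log2(CPM + 1) on the x axis and the log2 difference, vehicle culture minus sorted Cre control, on the y axis. Called genes are coloured, the dashed line is the median of all genes at 0.54, and the pericyte gene Rgs5 at -10.31 lies near the lower edge while Rmrp and Trpm3 lie at the top.

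The balance of the calls rests on the scaling. The median log2 difference over all genes tested was 0.54 with TMM, so the typical gene sat a little above 0, and 58.4% of calls were higher. With relative log expression scaling the median was 0.29 and 51.1% of calls were higher. With library totals and no TMM it was 0.03 and 42.9% were higher, and DESeq2 with its own size factors gave 0.00 and 43.2%. All differences below are on the TMM scale, on which the typical gene lies at 0.54, and a range given after the counts of a list is over the 16 alternatives that kept the filter on low values.

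The genes that define brain pericytes were far lower in culture. Of 20 pericyte markers, all tested, 17 were lower and 0 higher, with a median log2 difference of -4.55, and the count was 17 in each of the 16 alternatives. Rgs5, a regulator of G protein signalling and the most widely used marker of brain pericytes (chr1:169655501-169695813 of GRCm38), had 3.51, 3.46 and 3.25 CPM in the vehicle cultures, against 5869, 6520.3, 5401 and 4702 CPM in the sorted Cre libraries. That is 1651-fold lower in culture (log2 difference -10.31 ± 0.11, limma adjusted p = 1.89e-10), with every culture far under every sorted library. The 3 cultures together held 395 Rgs5 reads, against 119094 in the much shallower sorted libraries.

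The genes of the pericyte potassium channel went the same way. Kcnj8, its pore subunit (chr6:142564837-142571614), had 0 reads in the vehicle cultures, against 1163, 1143, 1136 and 888 CPM in the sorted Cre libraries, which is at least 41851-fold lower when 3 reads over the group are taken as the floor. Its neighbour Abcc9, the regulatory subunit (chr6:142587862-142702766), had 0.0842, 0.118 and 0 CPM in the vehicle cultures, against 806, 844, 608 and 713 CPM in the sorted Cre libraries. Higd1b, a small mitochondrial membrane protein used as a pericyte marker, likewise had 0 reads in the vehicle cultures, against 227, 212, 177 and 158 CPM in the sorted Cre libraries. Vtn, the adhesive glycoprotein vitronectin that brain pericytes secrete, averaged 0.0610 ± 0.0568 CPM in vehicle cultures and 1257 ± 259.7 CPM in sorted Cre libraries (log2 difference -10.19 ± 0.17, limma adjusted p = 9.91e-10). Cspg4, the proteoglycan NG2, had 0.870, 0.447 and 0.898 CPM in the vehicle cultures, against 431, 433, 326.9 and 376 CPM in the sorted Cre libraries. None of these 5 genes was above 1 CPM in any culture, and each had 158 CPM or more in all 4 sorted libraries. For Kcnj8 and Higd1b, at 0 reads, the difference holds only if the culture table counted them, a limit given below with Cox4i1.

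**Figure D2:**
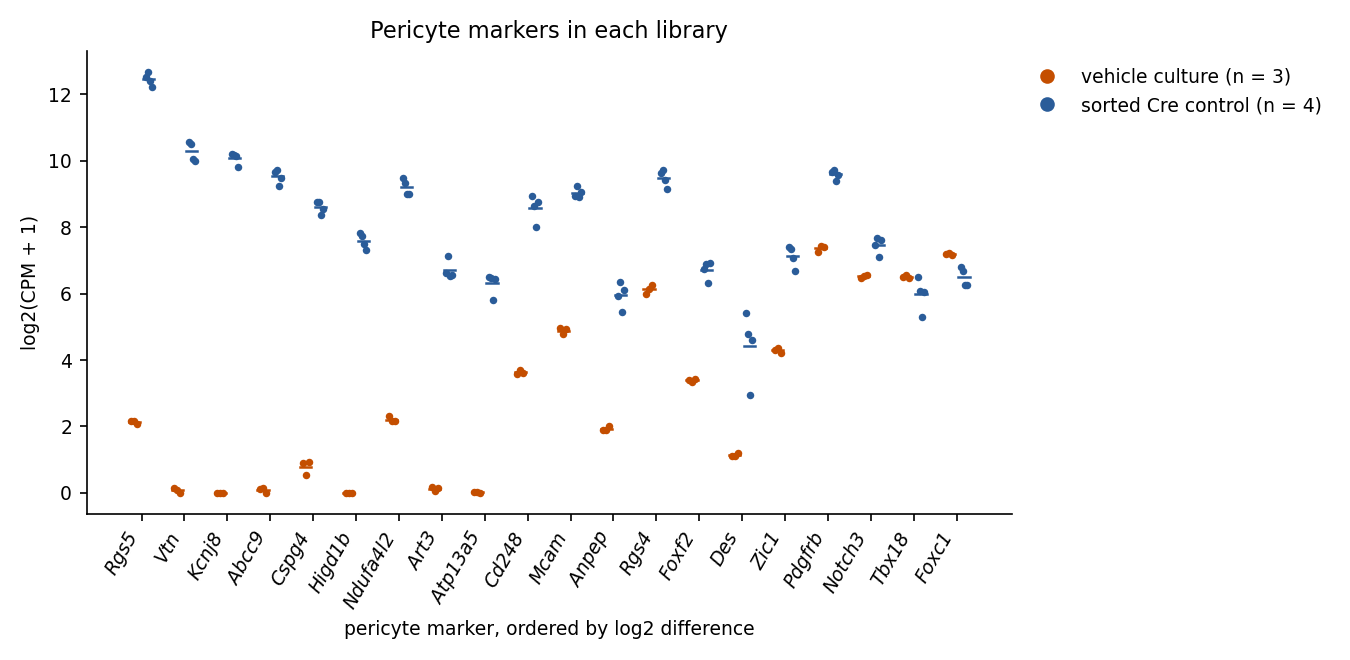
Level of each of the 20 pericyte markers in log2(CPM + 1), with 3 vehicle cultures at the left and 4 sorted Cre controls at the right of each gene; points are libraries and bars are means. Groups of 19 markers do not overlap, and only Tbx18 has cultures within the sorted range.

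Other markers were lower to varying degrees. Pdgfrb, the PDGF-B receptor that holds pericytes to the vessel, had 152, 171 and 167 CPM in the vehicle cultures, against 808, 841, 674 and 753 CPM in the sorted Cre libraries (4.71-fold lower, log2 difference -2.23 ± 0.09, limma adjusted p = 8.44e-08). Mcam, the adhesion molecule CD146, averaged 28.6 ± 1.72 CPM in vehicle cultures and 526 ± 59.3 CPM in sorted Cre libraries. Cd248, endosialin, averaged 11.4 ± 0.520 CPM in vehicle cultures and 392 ± 97.6 CPM in sorted Cre libraries. Anpep, aminopeptidase N or CD13, and Rgs4, another regulator of G protein signalling, were 22.4-fold and 10.4-fold lower. Ndufa4l2, a hypoxia-inducible protein of mitochondria, was 163-fold lower, and the ATPase gene Atp13a5 had 2 reads in all vehicle cultures, against 89.1, 88.0, 54.8 and 86.1 CPM in the sorted Cre libraries. Art3 and Des, which encode an ADP-ribosyltransferase and the intermediate filament desmin, had log2 differences of -6.57 ± 0.21 and -3.30 ± 0.51, and Des stood at 42.0, 26.4, 6.68 and 23.2 CPM in the sorted libraries.

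Transcription factors of forebrain mural cells were split. Foxf2 and Zic1 were lower (-3.33 ± 0.17 and -2.83 ± 0.18 on the log2 scale, limma adjusted p = 2.61e-07 and 9.94e-07). Tbx18 and Foxc1, which mark mural cells and their mesenchymal and neural crest forebears, were not called. Tbx18 had 89.6, 94.01 and 87.2 CPM in the vehicle cultures, against 88.95, 66.6, 38.1 and 65.3 CPM in the sorted Cre libraries (log2 difference 0.53 ± 0.24, limma adjusted p = 0.0718). Foxc1 had 146, 147 and 142.3 CPM in the vehicle cultures, against 111, 100.99, 75.7 and 75.6 CPM in the sorted Cre libraries. Notch3, the Notch receptor of mural cells, was also not called at 90.8 ± 2.36 CPM in vehicle cultures and 177 ± 29.6 CPM in sorted Cre libraries (log2 difference -0.94 ± 0.14). Foxc1 lay a little higher in culture and Notch3 lower, both inside the 4-fold limit, and the Tbx18 difference turned to -0.031 with DESeq2, while Kcnj8, Abcc9, Higd1b and Vtn were at or near 0.

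Membrane transport genes of brain pericytes were called lower more often than higher. Of 15 tested members of a list of transporters and channels, 20 in all, 7 were lower and 1 higher (7 to 8 lower and 1 to 4 higher over the alternatives, with 4 higher without sorted Cre library Cre_142). The proline transporter Slc6a20a averaged 0.0967 ± 0.0380 CPM in vehicle cultures and 32.0 ± 5.40 CPM in sorted Cre libraries (log2 difference -4.90 ± 0.21, limma adjusted p = 8.72e-08). The member called higher was the cystine transporter Slc7a11, described with the antioxidant genes below.

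Contractile genes were called in both directions: of 14 tested members of 18, 4 were higher and 3 lower (3 to 4 and 2 to 4 over the alternatives). Smooth muscle actin, Acta2, had 104, 80.6 and 74.1 CPM in the vehicle cultures, against 27.6, 19.6, 16.5 and 10.1 CPM in the sorted Cre libraries (4.68-fold higher, log2 difference 2.23 ± 0.30, limma adjusted p = 0.000126). Its call was lost with library totals at 1.76, with DESeq2 at 1.71, and without sorted Cre library Cre_142 at 1.97, each time through the fold limit. Lmod1, an actin nucleator of smooth muscle, was higher (2.69 ± 0.20), as were the actin crosslinker Flna (2280.2 ± 114 CPM in vehicle cultures and 359 ± 53.7 CPM in sorted Cre libraries) and the integrin Itga8 (4.04 ± 0.24). Myosin light chain Myl9 had 49.9, 46.8 and 43.4 CPM in the vehicle cultures, against 818, 849, 739.9 and 565 CPM in the sorted Cre libraries. Mylk, the kinase that switches that light chain on, was 13.6-fold lower (log2 difference -3.73 ± 0.10, limma adjusted p = 9.89e-09). Higher actin and filamin thus stood beside lower myosin light chain and its kinase.

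Genes of growth factor signalling between mural and endothelial cells split in both directions. Of 19 tested members of 20, 10 were higher and 6 lower (9 to 10 and 6 over the alternatives). Among ligands, Pdgfd, a second ligand of PDGFRB, had 195, 192.9 and 216 CPM in the vehicle cultures, against 0 reads in the sorted Cre libraries, at least 1414-fold higher at a floor of 3 reads over the group. Angpt2, the angiopoietin that loosens vessels, had 219.8, 244 and 237 CPM in the vehicle cultures, against 1.37, 2.27, 5.50 and 2.40 CPM in the sorted Cre libraries. Vegfa, the main endothelial growth factor, averaged 213 ± 14.8 CPM in vehicle cultures and 14.4 ± 3.19 CPM in sorted Cre libraries (log2 difference 3.82 ± 0.18, limma adjusted p = 1.73e-07). The heparin-binding factors Ptn and Mdk were lower: Ptn had 0.112, 0.0941 and 0.106 CPM in the vehicle cultures, against 952, 827, 942 and 842 CPM in the sorted Cre libraries, and Mdk was 84.8-fold lower. Among receptors, Ednra, the endothelin receptor of mural cells, was 294-fold lower, and Pdgfra, the receptor of fibroblasts and other mesenchyme, had 94.6, 105 and 96.6 CPM in the vehicle cultures, against 7.32, 2.47, 0 and 0 CPM in the sorted Cre libraries. Nrp1, a co-receptor for VEGF, did not pass at 294 ± 17.6 CPM in vehicle cultures and 319.9 ± 26.4 CPM in sorted Cre libraries (limma adjusted p = 0.234).

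The transcriptional targets of Notch were lower while a receptor, a ligand and the DNA-binding partner of the pathway were higher. Of 14 tested genes of the pathway, out of 15, 5 were lower and 3 higher (5 to 7 and 2 to 3 over the alternatives), and the 5 lower members are all targets. Heyl, a target of NOTCH3 in mural cells, had 0 reads in the vehicle cultures, against 350.0, 408, 309.6 and 320.2 CPM in the sorted Cre libraries. Hes1 had 3.62, 3.9996 and 5.28 CPM in the vehicle cultures, against 315, 256.6, 346 and 217 CPM in the sorted Cre libraries (log2 difference -5.74 ± 0.19, limma adjusted p = 2.69e-08). Hey1, Hey2 and the feedback inhibitor Nrarp had log2 differences of -5.06 ± 0.28, -5.62 ± 0.22 and -5.65 ± 0.18. The receptor Notch2 was 8.89-fold higher, at 642 ± 39.7 CPM in vehicle cultures and 72.2 ± 6.25 CPM in sorted Cre libraries. The ligand Jag2 and Rbpj, through which Notch acts on DNA, had log2 differences of 2.96 ± 0.42 and 2.99 ± 0.26. Hey1 and Nrarp were also present in endothelial Cre controls, at 102 and 174 CPM, and the part of endothelial RNA in the sorted values was not tested.

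Factors that pattern mesenchyme and brain showed 8 lower and 3 higher among 18 tested of 26 (7 to 8 and 3 over the alternatives). Tbx2, a T-box repressor, was 72.3-fold lower, with 146, 135, 141.3 and 139.2 CPM in the sorted Cre libraries. Zic4 and Lef1, a factor of dorsal midline cells and a partner of beta-catenin, had log2 differences of -4.85 ± 0.15 and -5.34 ± 0.18. Prrx1, a factor of limb and craniofacial mesenchyme and of fibroblasts, was 11.7-fold higher, at 484, 471 and 508 CPM in the vehicle cultures, against 41.5, 50.1, 43.8 and 31.3 CPM in the sorted Cre libraries. Ebf1 was not called, at 311 ± 33.6 CPM in vehicle cultures and 498 ± 54.0 CPM in sorted Cre libraries. None of 23 Hox genes, which give trunk cells their position, passed the filter, and 18 of them had no read in any vehicle culture.

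Matrix genes moved both ways, with more members higher. Elastic fibre and matricellular genes had 11 higher and 4 lower of 19 tested (9 to 12 and 3 to 4 over the alternatives). Among the 19 is 1 gene at about 0 in every culture library, a limit given below with Cox4i1. Lox, the enzyme that crosslinks collagen and elastin, had 1117, 1095 and 1089 CPM in the vehicle cultures, against 8.70, 0, 0 and 6.56 CPM in the sorted Cre libraries (289-fold higher, log2 difference 8.56 ± 0.82, limma adjusted p = 1.37e-05). The microfibril genes Fbn1 and Ltbp1, fibrillin and the anchor of latent TGF-beta, were 33.2-fold and 58.6-fold higher. Mfap2, another microfibril component, went the other way with 0.786, 1.44 and 1.03 CPM in the vehicle cultures, against 424, 471, 335.4 and 325 CPM in the sorted Cre libraries.

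Collagen genes were called in both directions. Of 14 fibrillar and associated collagens tested, 6 were higher and 2 lower (4 to 6 and 2 over the alternatives). Col8a1, a short-chain collagen of injured vessel walls, had 546, 509 and 548 CPM in the vehicle cultures, against 0.458, 0.618, 6.68 and 1.09 CPM in the sorted Cre libraries. Col6a1, Col5a1 and Col12a1 were higher, with log2 differences of 4.79 ± 0.32, 3.22 ± 0.26 and 3.94 ± 0.62, whereas Col6a3 and Col14a1 were lower, with -4.09 ± 0.25 and -4.31 ± 0.27. Col1a2, the main fibrillar collagen of connective tissue, was not called, at 326.7 ± 9.396 CPM in vehicle cultures and 196.7 ± 55.1 CPM in sorted Cre libraries. The chains COL6A1 and COL6A3 assemble into 1 protein, and their genes moved in opposite directions.

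Basement membrane genes had 6 higher and 1 lower of 16 tested (5 to 6 and 1 over the alternatives). Laminin chains went opposite ways: Lama5 had 686, 714 and 692 CPM in the vehicle cultures, against 0, 1.24, 3.34 and 8.52 CPM in the sorted Cre libraries, while Lama4, the early vascular laminin chain, had 23.7, 26.9 and 24.7 CPM in the vehicle cultures, against 367, 344, 236 and 295.7 CPM in the sorted Cre libraries. Nid2 and Col4a5 were 10.6-fold and 27.2-fold higher. Col4a1 and the matricellular protein Sparc, typical products of vessel wall cells, were not called, with log2 differences of 0.96 ± 0.11 and -0.31 ± 0.09. Of proteases and inhibitors, 7 of 17 tested were higher and 2 lower (5 to 7 and 2 to 3 over the alternatives). Mmp2 was higher (5.64 ± 0.50), and so was the inhibitor Timp2 (781 ± 9.23 CPM in vehicle cultures and 44.3 ± 9.60 CPM in sorted Cre libraries). Mmp9, the other gelatinase, had 0.0842, 0.0235 and 0.0264 CPM in the vehicle cultures, against 1089, 1196, 642.8 and 879 CPM in the sorted Cre libraries, so the gelatinase genes stood in opposite orders in the groups.

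Fibroblast markers were mostly not called: 2 of 8 tested were higher and 0 lower (2 and 0 to 1 over the alternatives). The higher genes were Pdgfra, given above, and Ogn, the small proteoglycan osteoglycin, at 1122, 1055 and 1010.4 CPM in the vehicle cultures, against 23.8, 18.5, 5.50 and 15.95 CPM in the sorted Cre libraries. The summed level of the 14 fibroblast markers ran 1754 to 1839 CPM in vehicle cultures and 564 to 1044 CPM in sorted Cre libraries. Targets of YAP, SRF and TGF-beta, which cells on stiff surfaces raise, had 6 higher and 0 lower of 18 tested, but 3 higher and 1 lower with library totals, with DESeq2 and after thinning. Ankrd1, a muscle ankyrin protein and YAP target, was 102-fold higher, and alpha-actinin Actn1 had 1052 ± 20.1 CPM in vehicle cultures and 87.5 ± 6.95 CPM in sorted Cre libraries.

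**Figure D3:**
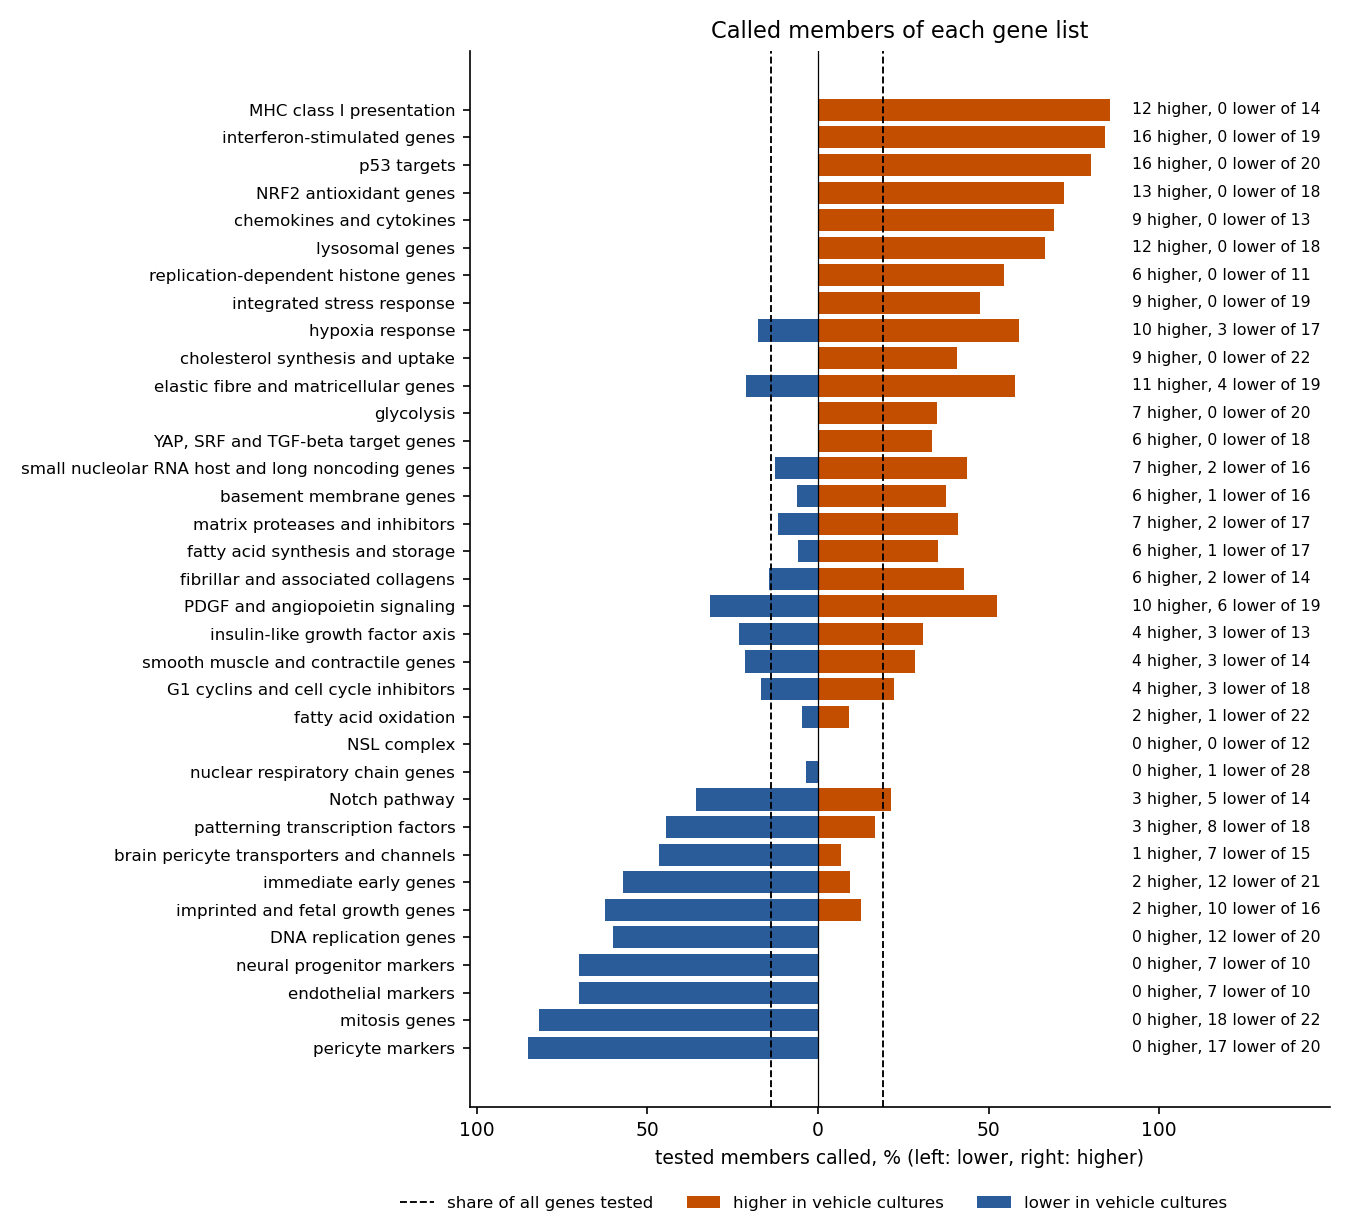
For each list with at least 10 genes tested, bars give the share of tested members called lower (left) or higher (right) in vehicle cultures, and the text gives the counts. Dashed lines mark the shares over all genes, 13.7% lower and 19.2% higher; pericyte and mitosis lists lie at the bottom and MHC class I, interferon and p53 lists at the top.

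Cell cycle genes were lower in the cultures. Of 22 mitosis genes, 18 were lower and 0 higher, with a median log2 difference of -2.94 (17 to 22 lower over the alternatives). Mki67, the proliferation antigen Ki-67, had 15.9, 12.1 and 13.5 CPM in the vehicle cultures, against 331, 323, 317 and 283 CPM in the sorted Cre libraries (22.7-fold lower, log2 difference -4.41 ± 0.12, limma adjusted p = 8.96e-09). Cenpf, a kinetochore protein, was 20.4-fold lower, Birc5, survivin, 22.4-fold, and Kif11, the spindle motor, 14.2-fold. Ube2c, which marks mitotic cyclins for destruction, had 7.19, 5.48 and 5.97 CPM in the vehicle cultures, against 84.5, 83.1, 78.4 and 61.8 CPM in the sorted Cre libraries. Cdk1, the mitotic kinase, lay on the same side but inside the fold limit, at 24.7 ± 2.58 CPM in vehicle cultures and 72.7 ± 5.50 CPM in sorted Cre libraries. In bulk RNA, fewer dividing cells and less of this RNA per cell cannot be told apart.

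Genes of DNA replication followed, with 12 of 20 lower and 0 higher (9 to 15 lower over the alternatives). Among the 20 is 1 gene at about 0 in every culture library, a limit given below with Cox4i1. The helicase subunit Mcm6 had 31.3, 28.7 and 27.6 CPM in the vehicle cultures, against 240.0, 223, 220.0 and 233 CPM in the sorted Cre libraries. Thymidine kinase Tk1 was 11.04-fold lower and Mcm3 7.45-fold. The sliding clamp Pcna and the helicase subunit Mcm7 were not called, with log2 differences of -1.12 ± 0.11 and -1.35 ± 0.11. RNA of the 5 replication genes named here was present in both groups.

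Regulators of the entry into S phase went in both directions, 4 higher and 3 lower of 18 (3 to 4 and 3 over the alternatives). The INK4 inhibitors, neighbours on chromosome 4, were among the clearest differences. Cdkn2a (chr4:89274473-89294619), which encodes p16 and ARF, had 94.1, 90.1 and 96.3 CPM in the vehicle cultures, against 1 read in all 4 sorted Cre libraries. Cdkn2b (chr4:89306289-89311032), which encodes p15, had 233, 220.0 and 221 CPM in the vehicle cultures, against 0.610, 2.27, 0.197 and 2.84 CPM in the sorted Cre libraries (152-fold higher, log2 difference 6.67 ± 0.40, limma adjusted p = 6.46e-07). Cdkn1a, which encodes p21, was 4.70-fold higher, a call lost through the fold limit with library totals (1.76) and DESeq2 (1.72). Cyclin D1, Ccnd1, had 1068, 869 and 960.0 CPM in the vehicle cultures, against 132, 115, 142.3 and 152 CPM in the sorted Cre libraries, while cyclin D2, Ccnd2, overlapped between the groups. Cyclin E2, Ccne2, was 27.8-fold lower.

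Most targets of p53 were higher. Of 20, all tested, 16 were higher and 0 lower, with a median log2 difference of 3.28 (14 to 16 higher and 0 to 1 lower over the alternatives). Cyclin G1, Ccng1, had 3493, 3349.6 and 3281 CPM in the vehicle cultures, against 40.3, 57.9, 35.0 and 24.5 CPM in the sorted Cre libraries (85.6-fold higher, log2 difference 6.45 ± 0.24, limma adjusted p = 4.2e-08). Eda2r, a receptor of the TNF family, had 289.9, 294 and 285 CPM in the vehicle cultures, against 4 reads in all sorted Cre libraries. Phlda3, an inhibitor of AKT, was 35.1-fold higher, Trp53inp1 32.3-fold and the death receptor Fas 76.8-fold. Of the direct death effectors, Bbc3, which encodes PUMA, was higher (3.98 ± 0.33) and Bax was not called (0.83 ± 0.11). On a scale shared by 33 libraries, Ccng1 was at 1930.1 to 2784 CPM in the 3 fatty acid treated cultures, 3335 CPM on average in vehicle cultures and 39.9 CPM on average in sorted Cre libraries.

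The windows of some mitosis genes held the letters of the cell cycle homology region, TTTGAA, which is known from genes that are repressed outside G2 and M phase. Within the 250 bases before the transcript start that the RefSeq window table uses, on either strand, it occurred in 8 of the 18 mitosis genes that had a window (44.4%), against 18.3% of 27025 genes. Ube2c (chr2:164769679-164769928, plus strand, 1 match beginning 29 bases before the start) and Kif11 (chr19:37376132-37376381, plus strand, 1 match at 19 bases) are shown because both were called lower and hold the letters next to the start, with the match in capitals; TTCAAA is TTTGAA read on the other strand.
Ube2c: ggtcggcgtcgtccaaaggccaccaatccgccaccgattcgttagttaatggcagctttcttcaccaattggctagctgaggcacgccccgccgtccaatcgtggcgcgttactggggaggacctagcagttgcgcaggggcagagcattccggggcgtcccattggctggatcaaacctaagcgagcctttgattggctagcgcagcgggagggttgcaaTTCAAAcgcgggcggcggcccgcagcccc
Kif11: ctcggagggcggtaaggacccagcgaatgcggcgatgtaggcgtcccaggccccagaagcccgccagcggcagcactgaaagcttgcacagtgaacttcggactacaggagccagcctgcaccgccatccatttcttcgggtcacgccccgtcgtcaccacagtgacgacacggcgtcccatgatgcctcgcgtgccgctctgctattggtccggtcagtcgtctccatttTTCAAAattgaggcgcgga
The match is a description of these windows and not a measured binding site. Cdk1, which was not called, also holds 2 matches, beginning 71 and 15 bases before its start.

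Interferon-stimulated genes were higher in the cultures, and the labels name no added interferon. Of 19 tested of 20, 16 were higher and 0 lower, with a median log2 difference of 3.35 (13 to 16 higher over the alternatives). Ifit1 (chr19:34640889-34650009), which binds viral RNA caps, had 182, 184.1 and 179 CPM in the vehicle cultures, against 1 read in all sorted Cre libraries. Ifit3, its partner, had 273, 264 and 256.96 CPM in the vehicle cultures, against 4.12, 0.824, 1.97 and 4.15 CPM in the sorted Cre libraries (95.8-fold higher, log2 difference 6.26 ± 0.36, limma adjusted p = 4.85e-07). Usp18, which takes ISG15 off proteins, and Ifi44 averaged 109 ± 2.78 and 172.1 ± 11.2 CPM in vehicle cultures and 2.85 ± 3.63 and 0.104 ± 0.120 CPM in sorted Cre libraries. The ubiquitin-like Isg15 was not called (1.40 ± 0.26), and Oasl2 overlapped between the groups at 122 ± 3.596 CPM in vehicle cultures and 118.7 ± 30.4 CPM in sorted Cre libraries. The sorted cells thus held Oasl2 RNA and almost no Ifit1 RNA. Ifit genes are close copies of each other, and the sources used here do not say how reads that match more than 1 of them were counted.

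In the windows upstream of these genes, the letters GAAANNGAAA, the core of the interferon-stimulated response element, occurred on either strand in 7 of 13 genes with a window (53.8%), against 3.46% of 27025 genes. Ifit1 (chr19:34640639-34640888, plus strand, matches beginning 104 and 85 bases before the start), Ifit3 (chr19:34583279-34583528, plus strand, at 156 and 122 bases) and Oas1a (chr5:120907526-120907775, minus strand, at 20 and 14 bases, overlapping each other) were each called higher and are shown with all matches in capitals, as read on the strand of the gene. The RefSeq gene records of Ifit3 and Oas1a extend beyond the start used for their windows, so these distances hold for that start alone.
Ifit1: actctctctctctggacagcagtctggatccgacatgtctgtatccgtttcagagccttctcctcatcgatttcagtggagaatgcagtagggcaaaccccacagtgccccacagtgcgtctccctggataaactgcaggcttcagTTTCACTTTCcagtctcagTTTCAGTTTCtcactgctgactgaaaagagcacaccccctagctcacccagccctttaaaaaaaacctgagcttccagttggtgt
Ifit3: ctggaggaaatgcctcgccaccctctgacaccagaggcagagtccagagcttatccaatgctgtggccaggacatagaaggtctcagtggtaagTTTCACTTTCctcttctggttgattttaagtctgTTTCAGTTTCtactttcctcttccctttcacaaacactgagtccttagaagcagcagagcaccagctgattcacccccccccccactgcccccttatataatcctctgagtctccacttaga
Oas1a: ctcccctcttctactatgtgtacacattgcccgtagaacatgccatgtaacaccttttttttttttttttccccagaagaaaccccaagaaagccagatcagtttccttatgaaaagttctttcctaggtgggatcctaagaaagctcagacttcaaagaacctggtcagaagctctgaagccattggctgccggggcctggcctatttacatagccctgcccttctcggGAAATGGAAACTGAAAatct
Oas1a, an activator of RNase L, had 41.4 ± 3.04 CPM in vehicle cultures and 0.993 ± 0.973 CPM in sorted Cre libraries, and the letters alone say nothing of which factor was bound.

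Genes of antigen presentation by MHC class I were also higher, 12 of 14 with 0 lower (10 to 12 higher over the alternatives). H2-K1 had 1106, 1095 and 1023 CPM in the vehicle cultures, against 3.36, 11.7, 8.85 and 5.25 CPM in the sorted Cre libraries (147-fold higher, log2 difference 7.14 ± 0.33, limma adjusted p = 1.38e-07), and H2-D1 was 69.2-fold higher. The peptide transporter Tap1 and Nlrc5, the transactivator of class I genes, averaged 116.6 ± 2.06 and 44.4 ± 2.27 CPM in vehicle cultures and 1.41 ± 1.83 and 0.153 ± 0.305 CPM in sorted Cre libraries. Class I genes share long stretches of sequence, so the split of reads between H2-K1 and H2-D1 is uncertain. Embryonic tissue is known to hold little class I RNA. In these files H2-K1 was at 3.22 CPM in whole-brain Cre controls and 168 CPM in embryonic microglia. Those groups differ from pericytes in cell type, and the part of age was not tested.

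Secreted signals to leucocytes were higher as well, 9 of 13 tested of 24 and 0 lower (9 to 10 higher over the alternatives). Csf1, the growth factor of microglia and macrophages, had 746, 804 and 817 CPM in the vehicle cultures, against 8.09, 6.595, 1.97 and 4.37 CPM in the sorted Cre libraries (150.1-fold higher, log2 difference 7.10 ± 0.34, limma adjusted p = 1.78e-07). The monocyte chemokine Ccl2 was 21.3-fold higher. Ccl7, the neutrophil chemokine Cxcl5 and the cytokine Lif averaged 86.7 ± 4.997, 79.5 ± 7.04 and 25.9 ± 2.25 CPM in vehicle cultures, against 0 reads of each in the sorted Cre libraries. Nfkbia, the inhibitor and early target of NF-kB, overlapped between the groups (-0.23 ± 0.15, limma adjusted p = 0.203).

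Oxidative stress genes driven by NRF2 were higher, 13 of 18 with 0 lower, and 13 in each of the 16 alternatives. Gclc, the rate-limiting enzyme of glutathione synthesis, had 1204, 1339 and 1256 CPM in the vehicle cultures, against 8.85, 7.21, 3.73 and 21.4 CPM in the sorted Cre libraries (123-fold higher, log2 difference 7.04 ± 0.43, limma adjusted p = 7.34e-07). Haem oxygenase Hmox1 had 621.95, 739 and 716 CPM in the vehicle cultures, against 15.9, 17.7, 11.6 and 21.9 CPM in the sorted Cre libraries. Slc7a11, which imports cystine for glutathione, was 60.2-fold higher, the sulphiredoxin Srxn1 58.2-fold, malic enzyme Me1 39.1-fold and G6pdx, the first enzyme of the pentose phosphate path, 22.0-fold. The peroxiredoxin Prdx1, abundant in most cells, was not called (0.69 ± 0.09). The letters TGACNNNGC of the antioxidant response element stood upstream of 5 of 14 of these genes with a window (35.7%), against 11.5% of 27025 genes; G6pdx holds 1 match 57 bases before its start.

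Lysosomal genes were higher, 12 of 18 tested and 0 lower (10 to 12 higher over the alternatives). The protease cathepsin D, Ctsd, had 4355, 4523 and 4427 CPM in the vehicle cultures, against 98.3, 108, 59.8 and 84.1 CPM in the sorted Cre libraries (50.7-fold higher, log2 difference 5.68 ± 0.18, limma adjusted p = 2.05e-08). Cathepsins Ctsb and Ctsl were 10.8-fold and 16.6-fold higher, prosaposin Psap 9.70-fold and the glycoprotein Gpnmb 93.9-fold. The tetraspanin Cd63 was on the other side but not called (-0.66 ± 0.10). Opposite to the rise in TruSeq cultures, 11 of the 18 tested were higher in SMART-Seq than TruSeq libraries among other Cre control groups. Those groups are endothelial cells and microglia against whole brain and neural cells. They differ in cell type as well, and the part of the kit was not tested.

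**Figure D4:**
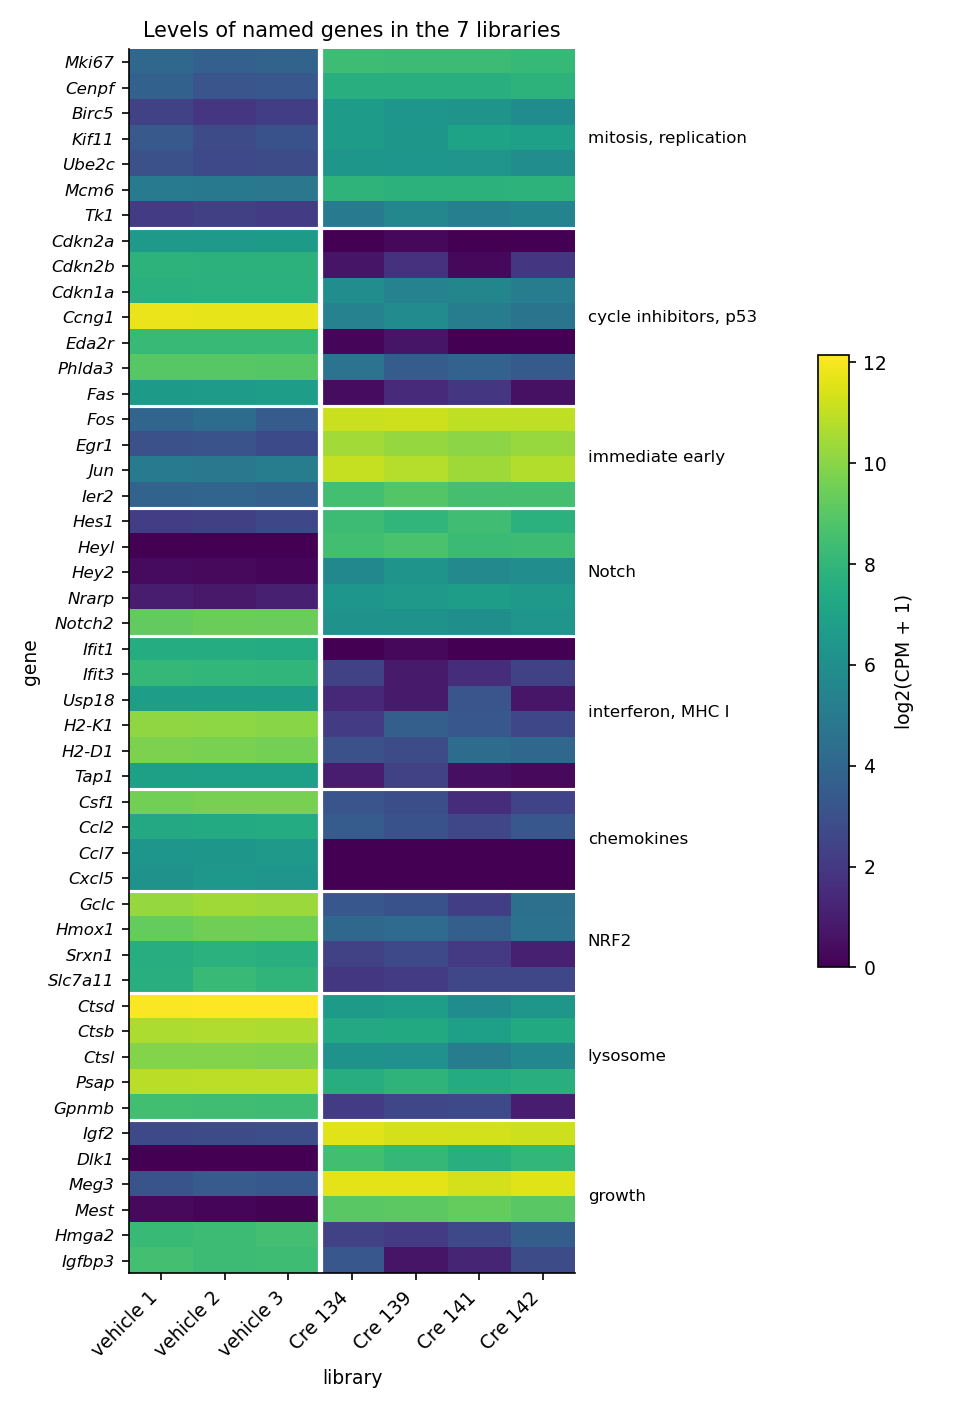
Heat map of log2(CPM + 1) for named genes (rows, grouped by list) in the 3 vehicle cultures at the left and the 4 sorted Cre controls at the right; colours are to be compared along a row, since CPM are not divided by gene length. In each block the libraries of a group look alike, with mitosis, immediate early, Notch target and fetal growth genes dark in the cultures and p53, interferon, NRF2 and lysosome genes, Notch2, Hmga2 and Igfbp3 bright.

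Energy metabolism differed in part. Glycolysis genes had 7 higher and 0 lower of 20, but 3 higher with library totals, DESeq2 and after thinning and 4 with relative log expression scaling. Hexokinase Hk2 was 13.2-fold higher and Pgk1 8.49-fold, whereas Aldoa and Pkm stayed inside the fold limit (1.85 ± 0.08 and 1.64 ± 0.07). Of 17 hypoxia-responsive genes 10 were higher and 3 lower (8 to 11 and 2 to 3 over the alternatives). Car9, a carbonic anhydrase and target of HIF1, had 172.9, 163 and 161 CPM in the vehicle cultures, against 1.98, 0.618, 0 and 3.28 CPM in the sorted Cre libraries, and the mitophagy gene Bnip3 was 17.0-fold higher. Epas1, which encodes HIF2A and is itself high in pericytes, had 6.43, 7.83 and 9.69 CPM in the vehicle cultures, against 386, 326, 226 and 291 CPM in the sorted Cre libraries. Car9 and Bnip3 were thus higher while Epas1 and the hypoxia-inducible Ndufa4l2 were lower.

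Lipid and stress lists were called in part. Cholesterol genes had 9 higher and 0 lower of 22, and 3 higher and 1 lower with library totals, DESeq2 or thinning; the sterol sensor partner Insig1 was 6.603-fold higher. Fatty acid synthesis and storage had 6 higher and 1 lower of 17 tested (4 to 7 and 1 over the alternatives). The desaturase Scd1 had 432.1, 374 and 401 CPM in the vehicle cultures, against 5.95, 0.618, 21.8 and 9.83 CPM in the sorted Cre libraries, the lipid droplet protein Plin2 was 5.45-fold higher with a call lost with library totals (1.96) and DESeq2 (1.94), and the fatty acid binding protein Fabp5 was 15.3-fold lower. Fatty acid oxidation, by which cells burn the fatty acids used in the treated cultures, had 2 higher and 1 lower of 22 tested (1 to 2 and 1 over the alternatives). The integrated stress response had 9 higher and 0 lower of 19, with 4 or 5 higher under library totals, DESeq2 and thinning. Its target Trib3 averaged 40.3 ± 6.38 CPM in vehicle cultures, against 0 reads in the sorted Cre libraries, and asparagine synthetase Asns was 14.9-fold higher.

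Mitochondrial transcripts and nuclear respiratory genes parted. Of 8 tested transcripts of the mitochondrial genome 7 were lower, also in each alternative that kept the filter of 5 CPM and these transcripts; 6 of 7 tested were lower at a mean of at least 20 CPM and 8 of 13 with no filter. Cytochrome b, mt-Cytb, had 419.7, 385 and 454 CPM in the vehicle cultures, against 14658, 18513, 18914 and 20917 CPM in the sorted Cre libraries, and mt-Nd1 was 14.4-fold lower. The exception was cytochrome oxidase subunit 1, mt-Co1, at 10456 ± 373 CPM in vehicle cultures and 6958 ± 921 CPM in sorted Cre libraries. The neural and whole-brain TruSeq libraries also had little mt-Cytb, 168 and 1514 CPM, against 8982 and 20009 CPM in endothelial cells and microglia made with SMART-Seq, and the part of the kit was not tested. Of 28 nuclear respiratory chain genes, 1 was called lower and 0 higher; Atp5a1, for example, had a log2 difference of 0.84 ± 0.08. With library totals, DESeq2 or thinning 4 or 5 were lower.

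The gene called lower there was Cox4i1, and it shows a limit of the culture table. Cox4i1, a core subunit of cytochrome oxidase (chr8:120668225-120674209), is listed at 0 in all cultures, against 547, 503, 507 and 420.3 CPM in the sorted Cre libraries, and the ribosomal protein gene Rpl13 (chr8:123102350-123105244) is listed at 0 in all cultures, against 872, 785, 818 and 651 CPM in the sorted Cre libraries. Every cell uses both genes. Of 8083 genes with at least 5 CPM in each of 5 Cre control groups, 1.47% were under 0.05 CPM in every culture library, and 105 of these were called lower. Of all genes so found, called or not, 20 lie on chromosome 8. Without all genes so found the count of lower genes is 1594. They include globin genes, the Y-linked Ddx3y and Eif2s3y, and Fabp7, so their number does not measure how many genes went uncounted. Genes under 5 CPM in any of these control groups were outside the search. A gene at 0 in the cultures can be a gene that the table did not count or a gene that the cells did not express, and the cause was not tested. This holds for each gene given with 0 reads in the cultures, such as Kcnj8, Higd1b, Heyl and Dlk1.

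Growth genes of the fetus were lower. Of 16 tested imprinted and fetal growth genes, out of 20, 10 were lower and 2 higher (10 to 12 lower over the alternatives). Igf2, the fetal insulin-like growth factor (chr7:142650768-142666816), had 5.42, 6.09 and 6.21 CPM in the vehicle cultures, against 2963, 2598, 2563 and 2364 CPM in the sorted Cre libraries (444-fold lower, log2 difference -8.57 ± 0.10, limma adjusted p = 1.89e-10). Dlk1 and Meg3 lie in 1 imprinted cluster on chromosome 12 (chr12:109452485-109463336 and chr12:109540996-109571729) and are read from opposite parental copies. Dlk1 had 0 reads in the vehicle cultures, against 353, 269.6, 199 and 266 CPM in the sorted Cre libraries, and the noncoding Meg3 had 7.83, 10.4 and 9.30 CPM in the vehicle cultures, against 3177, 3174, 2668 and 3024 CPM in the sorted Cre libraries. Rian, a further noncoding RNA of that cluster, was 43.6-fold lower, so both its protein and its noncoding genes were low in culture. Mest and Nnat were 3921-fold and 195-fold lower, and Peg3 overlapped between the groups.

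Not all fetal growth genes were lower. Hmga2, a chromatin protein of embryonic and transformed cells, had 293, 318 and 363 CPM in the vehicle cultures, against 4.27, 3.50, 5.50 and 11.1 CPM in the sorted Cre libraries (53.1-fold higher, log2 difference 5.62 ± 0.32, limma adjusted p = 4.3e-07). In the insulin-like growth factor axis, 4 of 13 tested were higher and 3 lower (3 to 4 and 2 to 3 over the alternatives). The receptor Igf1r was 5.18-fold higher, a call lost with library totals (1.88) and DESeq2 (1.86). Among the binding proteins Igfbp3 was 79.99-fold higher and Igfbp4 9.68-fold lower.

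Endothelial, neural and blood cell markers were lower in the cultures, while the summed levels of some other lists were higher there. Of 10 endothelial markers tested 7 were lower and 0 higher (5 to 9 and 0 to 1 over the alternatives), and the sum of all 12 ran 42.9 to 46.3 CPM in vehicle cultures and 362 to 492 CPM in sorted Cre libraries. Cldn5, the tight junction protein of brain endothelium, had 0 reads in the vehicle cultures, against 18.5, 3.92, 15.9 and 29.1 CPM in the sorted Cre libraries, and Pecam1 had 0.337, 0.682 and 0.607 CPM in the vehicle cultures, against 14.8, 18.1, 22.2 and 17.7 CPM in the sorted Cre libraries. On the scale shared by 33 libraries, sorted pericytes had 18.4 CPM of Pecam1 and 17.1 of Cldn5, against 874 and 2124 CPM in sorted endothelial Cre controls. Esam and Emcn, at 121 ± 30.5 and 105 ± 24.2 CPM in sorted pericytes, were 151-fold and 25.2-fold lower in culture.

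Neural markers were lower in culture too. Of 10 progenitor markers 7 were lower, or 6 to 7 over the alternatives (sums of 318 to 324 CPM in vehicle cultures and 2208 to 2920.0 CPM in sorted Cre libraries), and of 8 neuron markers tested 7 were lower (sums of 17.7 to 19.1 CPM in vehicle cultures and 255 to 389.9 CPM in sorted Cre libraries). Sox2 and Hes5 had no read in the vehicle cultures. Fabp7, the brain fatty acid binding protein of radial glia, had 1 read in all vehicle cultures, against 1292, 1284, 1922 and 1681 CPM in the sorted Cre libraries. Fabp7 alone was thus a large part of the progenitor sum in the sorted libraries, and the part of neural RNA in that sum was not tested. On the shared scale Fabp7 averaged 1565 CPM in sorted pericytes, against 244.6 in neural, 369 in whole-brain, 48.9 in endothelial and 29.0 in microglial Cre controls. Sox2, a progenitor transcription factor, averaged 58.4 CPM in sorted pericytes, against 185 in neural and 126 in whole-brain controls. Prom1, at 0.203 ± 0.0596 CPM in vehicle cultures and 126 ± 9.27 CPM in sorted Cre libraries, and Tubb3, which is among the genes at 0 in the culture table, were lower too. Nes, a progenitor filament also made by young vessels, was not called (-0.23 ± 0.10).

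Markers of blood and immune cells were low in both groups. Globin genes had no read in the vehicle cultures, and Hbb-bs and Hba-a1 ran 2.29, 44.9, 12.6 and 76.3 and 4.73, 27.4, 15.7 and 52.5 CPM in the sorted Cre libraries; globin genes are near copies and their split is uncertain. The sum of 12 microglia and macrophage markers was 5.81 to 7.29 CPM in vehicle cultures and 19.4 to 24.0 CPM in sorted Cre libraries, of which Csf1r, at 19.5 ± 1.95 CPM in sorted Cre libraries, was the single member tested. Astrocyte and choroid plexus markers had 2 of 4 and 1 of 1 tested members lower and none higher, oligodendrocyte and Schwann cell markers 1 of 3 higher and none lower, and bone and cartilage markers 2 of 4 higher and 2 lower. The 8 astrocyte markers summed to 351.4 to 384 CPM in vehicle cultures and 181 to 262 CPM in sorted Cre libraries, and the 10 bone and cartilage markers to 1399 to 1439 CPM in vehicle cultures and 251 to 395 CPM in sorted Cre libraries. The 8 choroid plexus markers summed to 4.46 to 5.01 CPM in vehicle cultures and 27.2 to 50.9 CPM in sorted Cre libraries. The part of such RNA in the lower genes of this comparison was not tested. Rgs5 was at 141.2 CPM in endothelial, 29.5 in microglial, 0.931 in neural and 60.4 in whole-brain Cre controls and 5698 in sorted pericytes on the shared scale. The X-linked Xist was at 531 to 619 CPM in the vehicle cultures and at 0, 0, 690.0 and 3.28 CPM in the sorted Cre libraries. The Y-linked Ddx3y was at 0 CPM in all vehicle cultures and at 155, 109, 0.197 and 138 CPM in the sorted Cre libraries, so the sex of the cells differed between the groups and within the sorted one.

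**Figure D5:**
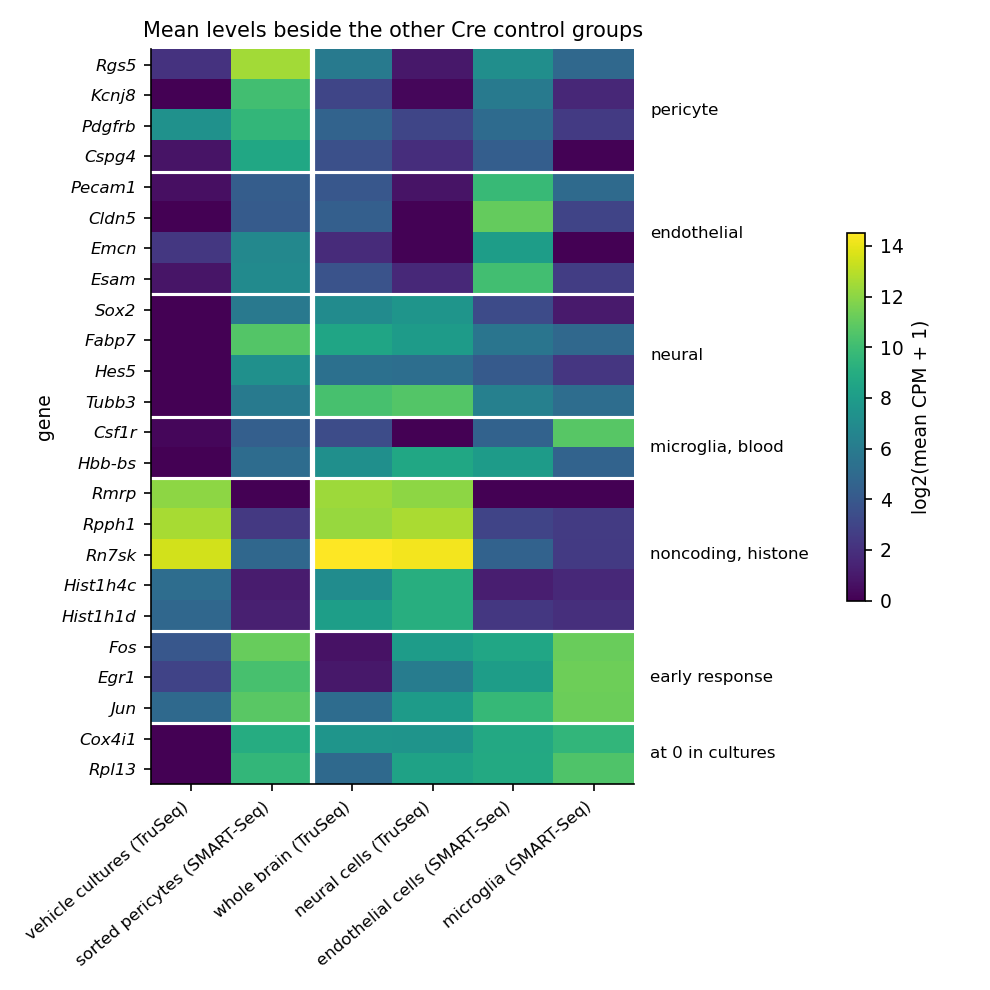
Heat map of log2(mean CPM + 1) on a scale shared by 33 libraries, for vehicle cultures and sorted pericytes at the left and 4 other Cre control groups at the right, with the library kit in the column names. Compare along rows: Rmrp, Rpph1 and Rn7sk are bright in the TruSeq columns, Fos, Egr1 and Jun are bright in sorted SMART-Seq columns, and Cox4i1 and Rpl13 are at 0 only in the cultures among the groups drawn.

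Some of the largest differences were also seen between TruSeq and SMART-Seq control groups. Those control groups differ in cell type as well, and the part of the kit was not tested. Rmrp, the RNA of the mitochondrial RNA processing enzyme, had 4976, 3691 and 4281 CPM in the vehicle cultures, against 1 read in all sorted Cre libraries, and on the shared scale it was at 5273 and 4272 CPM in TruSeq whole-brain and neural controls, against 0 CPM in both SMART-Seq endothelial cells and microglia. Rpph1 and Rn7sk, other RNAs without a long tail of adenosines, were 1542-fold and 436-fold higher in culture and had the same pattern. Histone genes of S phase, also without such a tail, were 6 higher and 0 lower of 11 tested (4 to 7 and 0 to 1 over the alternatives), opposite to the replication genes, and 10 of the 11 were higher in TruSeq controls. Hist1h4c, for example, averaged 35.2 ± 2.73 CPM in vehicle cultures and 1.17 ± 1.09 CPM in sorted Cre libraries; histone genes are near copies. The long noncoding Malat1 overlapped between the groups (-0.11 ± 0.10).

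Immediate early genes, which tissue handling is known to induce, ran the other way with 12 lower and 2 higher of 21 (12 to 15 lower over the alternatives). Fos had 14.7, 18.6 and 10.1 CPM in the vehicle cultures, against 2328, 2379, 2041 and 2025 CPM in the sorted Cre libraries (152-fold lower, log2 difference -7.18 ± 0.18, limma adjusted p = 6.78e-09). Egr1, Fosb and Jun were 179.8-fold, 177-fold and 57.0-fold lower, and Ier2 29.4-fold. Of the 21 members, 15 were also higher in SMART-Seq than TruSeq controls, and whole brain, which was not sorted, had 0.633 CPM of Fos against 259 in sorted neural cells and 2383 in sorted microglia on the shared scale. Whole brain, neural cells and microglia differ in cell type as well as in sorting, microglia also in kit, and the part of each was not tested. Over all called genes with a value in the Cre control groups of both kits, 469 of 2374 higher genes (19.8%, against 12.7% of genes tested) were also higher in TruSeq controls and 397 of 1593 lower genes (24.9%, against 9.72%) were also higher in SMART-Seq controls. Without them 1912 genes were higher and 1302 lower. Those groups also differ in cell type, and the part of the kit was not tested.

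The largest differences among genes with at least 50 CPM in the higher group were named by rule, 12 in each direction, with predicted and sex-linked genes left out. Beside Rmrp and Rpph1, the largest rises were Trpm3, a cation channel of meningeal and choroid cells, Lcn2 and Serpina3n, acute-phase proteins of inflamed tissue, and complement C3. Trpm3 had 2710.0, 3125 and 3024 CPM in the vehicle cultures, against 0.458, 0, 0.590 and 1.53 CPM in the sorted Cre libraries (log2 difference 10.89 ± 0.28, limma adjusted p = 7.94e-09). Lcn2 and C3 had 1295, 1614 and 1473 CPM and 1273, 1635 and 1488 CPM in the vehicle cultures, against 4 and 6 reads in all sorted Cre libraries. Serpina3n averaged 1051 ± 138.9 CPM in vehicle cultures, against 0 reads in the sorted Cre libraries. These secreted and channel genes were close to 0 in all 4 sorted libraries.

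The other rises were Cemip, which breaks down hyaluronan (3745-fold higher), the matrix protein Adamtsl3 (1079.9 ± 123 CPM in vehicle cultures, against 0 reads in sorted Cre libraries), xanthine dehydrogenase Xdh (3356-fold), osteopontin Spp1 (1187-fold), mesothelin Msln and Lrmda. Spp1, a secreted phosphoprotein of bone, macrophages and injured vessel wall, had 1344, 1335 and 1367 CPM in the vehicle cultures, against 1.07, 0, 0.197 and 3.28 CPM in the sorted Cre libraries. Msln, a surface protein of mesothelium, had 624, 509 and 542 CPM in the vehicle cultures, against 1 read in all sorted Cre libraries. Among the largest falls were Fabp7, Rgs5, Vtn, Kcnj8, Mmp9, Ptn, Rpl13, Abcc9, Cox4i1, Mest and Igf2, all given above.

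Other pericyte libraries of the series are given as a description, on the scale shared by 33 libraries. Fatty acid treated cultures (3 libraries) and sorted pericytes of the neural knockouts (10 libraries) differed at least 4-fold the same way for 1455 of 1593 lower genes (91.3%) and for 1677 of 2374 higher genes (70.6%). Rgs5 was at 1.31 to 1.88 CPM in treated cultures and 3189 to 8340.1 CPM in knockout pericytes, and Igf2 at 2.14 to 3.50 and 973 to 2136 CPM. Csf1 was at 1426 to 1748 CPM in treated cultures and 2.07 to 29.5 CPM in knockout pericytes, H2-K1 at 714 to 1212 and 4.69 to 19.1 CPM, and Cdkn2b at 161 to 243 and 0 to 4.62 CPM. Ranges of treated cultures and knockout pericytes did not overlap for these genes. Over all called genes, 1395 lower (87.6%) and 1664 higher genes (70.1%) were both 4-fold apart and without overlap. The same shares over all genes tested were not computed. Those libraries differ in culture, age, kit and table just as the main groups do, so the shares are not independent support. Treatment and knockout are further differences between them. The NSL complex itself had 0 of 12 members called, with Kansl1 at 213 ± 17.97 CPM in vehicle cultures and 76.0 ± 12.5 CPM in sorted Cre libraries.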

How the data were processed

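RNA was sequenced from 3 vehicle treated cultures of brain pericytes and from 4 sorted Cre control pericyte samples. The submitters' processing notes name STAR, featureCounts, DESeq2 and the build mm10, without versions. The sources used here give neither the strand setting nor how reads with several matches were treated. The authors deposited raw counts for the cultures and for whole brain. The sorted tables that the authors deposited hold counts divided by 1 size factor per library, a signal with no fixed total, and whole reads were recovered from them: 100% of the sorted Cre values came out whole within 0.01. Of the sample columns in these tables, 27 belong to no sample used here and were left out.

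The tables were joined by Ensembl gene (47937 genes, 47224 with a symbol from the reference tables). CPM were computed with TMM factors from edgeR 4.0.16, which ran 0.8165 to 0.8357 in cultures and 1.141 to 1.179 in sorted libraries. The fit was limma 3.58.1 with a trend on log2(CPM + 1), so fold changes of low genes are understated, and p-values were adjusted by the Benjamini-Hochberg method over all 12415 genes tested. DESeq2 1.42.0 and edgeR's quasi-likelihood test ran on counts and recovered reads as alternatives, with other pseudocounts, filters, scalings, thinning and left-out libraries. The limma fit on log2(CPM + 1), computed from counts and recovered reads, is the main result. It was chosen because the sorted libraries were deposited as normalized values. Named genes were up to 6 called members of each list with the largest difference and up to 2 of the most abundant members not called, each pericyte marker, and the 12 largest rises and falls at a mean of at least 50 CPM in the higher group. From the first of these the text gives a part, and 1 of the largest falls is not reported here. Members and lists were chosen with earlier results of these data known. No 2 libraries of a group agreed within sampling noise (chi-square per gene of 9.139 or more). Coordinates are those of GRCm38.p6 in RefSeq, and promoter windows come from RefSeq on that build. The script was tested on simulated data.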

Additional observations from a re-analysis of the deposited data

Results flagged for a closer look

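Among the named genes with a mean of at least 1 CPM in sorted Cre libraries, 11 of 167 had 1 sorted library far from the other 3, by a gap larger than Dixon's limit for 4 samples allows as a share of the group's range; chance alone gives about 1 in 20. The 3 cultures are too few for this check. No explanation was tested for any of them.

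Library Cre_141 held 5 of these. In it Atp13a5 was at 54.8 CPM, against 86.1 to 89.1 in the others (gap share 0.912), Col8a1 at 6.68 CPM against 0.458 to 1.09 (0.898), and Usp18 at 8.26 CPM against 0.656 to 1.68 (0.865). Its Ctsb was at 114 CPM against 158 to 166 (0.857) and its Fabp5 at 147 CPM against 132 to 135 (0.835).

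Library Cre_139 held 3: Art3 was at 138 CPM against 90.6 to 96.4 (0.877), Ier2 at 474 CPM against 370.0 to 379 (0.915), and Prom1 at 139.5 CPM against 120.7 to 121.5 (0.960). Library Cre_134 had Col6a1 at 14.7 CPM against 5.25 to 5.701 (0.952) and Pkm at 670 CPM against 743 to 752 (0.889). Library Cre_142 had Kcnj8 at 888 CPM against 1136 to 1163 (0.902). In each case the sorted values stayed on their side of the cultures.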

How the results depend on the processing

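No paired analysis was possible because the vehicle cultures and the sorted Cre libraries share no replicate numbers. Against 2381 higher and 1699 lower genes, leaving out 1 library at a time gave 2332 to 2406 higher and 1657 to 1735 lower. A pseudocount of 5 CPM gave 1084 lower genes, no filter on low values 2744, and a filter of 20 CPM 703; counts of higher genes under these settings were 1738, 2647 and 1791. With no limit on the fold 6320 genes were higher and 3572 lower. Library totals gave 1642 higher and 2182 lower, DESeq2 1661 and 2186, thinning to the smallest library 1672 and 2147, and edgeR's quasi-likelihood test 2394 and 1802, within 1.5 times of the main counts, but the first 3 turned the balance between higher and lower. With thinning 43.8% of calls were higher. Without filter 49.1% and with 20 CPM 71.8% of calls were higher.

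Of 189 genes named with values, 163 were called. Under the 19 alternatives that give a value per gene, 157 kept the call in each that tested them (13 of these went untested in 1, with the filter of 20 CPM or without mitochondrial transcripts) and 6 lost it in at least 1, through the fold limit: Acta2, Cdkn1a, Igf1r and Plin2 under library totals, DESeq2 or thinning, Cldn5 and Jag2 with a pseudocount of 5 CPM, at -1.97 and 1.75. No called gene changed sign. Among genes not called, Ccnd2, Oasl2 and Peg3 turned negative under other scalings: with library totals they stood at -0.32, -0.40 and -0.34, with relative log expression at -0.0615, -0.15 and -0.087, with DESeq2 at -0.35, -0.46 and -0.40, and thinned at -0.26, -0.40 and -0.35. With 1 library left out at a time Oasl2 ran from -0.054 without Cre_142 to 0.19, with -0.015 without Cre_141, and Tbx18 was at -0.031 with DESeq2. The cause was not tested. The sorted libraries are far shallower than the cultures, which limits what a count of 0 there shows: 3 reads over the group are 0.142 CPM, against 0.0259 CPM in the cultures.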
